A study of Mus musculus with 12 samples.

Results

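Cytochrome P450 family 2 genes encode haem enzymes of the endoplasmic reticulum that oxidise drugs, solvents, steroids and fatty acids. The members were taken as every gene in the table whose symbol begins with Cyp2 followed by letters of a subfamily and a digit, which gave 52 of 21705 genes, in 14 subfamilies. The largest were Cyp2c with 16 genes, Cyp2d with 10, Cyp2j with 8, Cyp2b with 5 and Cyp2a with 4. Female C57BL/6J mice, 10 to 12 weeks old, had been given saline (n = 6) or LNA29 (n = 6) through the tail vein. LNA29 is a mixture of a locked nucleic acid against miR-29a and another against miR-29b and miR-29c, at 20 mg/kg each, and livers were taken on day 7 after an 18 h fast. No group given an unrelated locked nucleic acid was analysed here, so an effect of the chemistry and an effect of miR-29 cannot be told apart in these data.

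In liver most of these enzymes are made by hepatocytes, often more on the side of the lobule near the central vein. They draw electrons from P450 reductase (Por) and cytochrome b5, and their transcription is set by nuclear receptors such as CAR (Nr1i3) and PXR (Nr1i2), by fasting, and in mice by the sex-specific pattern of growth hormone. Many members are near copies that lie side by side in the genome, so that some reads can belong to several of them.

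The target of LNA29 is shown by the 3 mature miR-29 sequences of the mouse (RefSeq, GRCm38.p6), with the seed, bases 2 to 8 from the 5′ end, in capitals. The 3 share the seed.
mmu-miR-29a-3p: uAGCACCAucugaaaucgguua
mmu-miR-29b-3p: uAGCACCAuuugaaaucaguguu
mmu-miR-29c-3p: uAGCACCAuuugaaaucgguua
The complement of the seed, TGGTGCT, was searched on the sense strand of 3′ UTRs annotated in GENCODE M21 (GRCm38), taking the longest per gene. Of the 45 members with a 3′ UTR, 2 held it (4.44%), against 2755 of 21004 protein-coding genes (13.1%). Members have short 3′ UTRs, and among UTRs of at most 500 bases the match was present in 1 of 34 members (2.94%) and 172 of 6725 genes (2.56%). The members with a match were Cyp2a12, at chr7:27036693-27036699 on the plus strand in exon 9, and Cyp2c38, at chr19:39390351-39390357 on the minus strand in exon 9. Both sites are shown with 10 bases before and 9 after, and the match in capitals.
Cyp2a12: gagcctgaagTGGTGCTagaaggaag
Cyp2c38: aagacagtccTGGTGCTtgctcaata
Cyp2a12, a bile acid hydroxylase, had a log2 fold change (LNA29 over saline) of -0.13 (standard error of the fit, SE, 0.15, limma adjusted p = 0.896). Cyp2c38, an arachidonic acid epoxygenase, had a log2 fold change of 0.10 (SE 0.16, limma adjusted p = 0.927).

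Values are the deposited signal, which is the reads estimated for a gene divided by the upper quartile of the library and multiplied by 1000, so they compare a gene between livers and, only after division by transcript length, genes with each other. Libraries held between 7696095 and 19062479 estimated reads on genes, with 1 read worth between 9.80 and 24.4, and the 52 members took between 0.413% and 1.07% of them. The median depth was 12011973 reads in saline and 9123470 in LNA29-treated livers, with 1 read worth a median of 12.9 and 18.4. At the same level a gene with few reads was thus more likely to have none in an LNA29 liver. Saline replicate 49 stood apart with 35.7% of its reads on albumin, against 43.6% to 46.9% in the other 11 livers. Of the 52 members, 39 had a mean of at least 10 over the 12 livers and were tested, and 12 of the other 13 had no read in any liver. The silent ones were Cyp2b19, Cyp2b23, Cyp2c53-ps, Cyp2c65, Cyp2c66, Cyp2j7-ps, Cyp2j8, Cyp2j11, Cyp2j12, Cyp2j13, Cyp2w1 and Cyp2ab1, and Cyp2t4 had 1 read in 1 LNA29 liver. A gene without reads was still listed at 1, and at most 3 reads in a liver was taken as the floor for a fold change.

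Among the tested members, most means were lower in LNA29-treated livers. Of the 9 members with a log2 fold change above 0, Cyp2b10 and 4 neighbouring Cyp2c genes had an unadjusted limma p under 0.05. No member passed limma at an adjusted p under 0.05, which 0.16% of the 12486 tested genes did (20 genes), and the lowest adjusted p among members was 0.0834, for Cyp2a22. At an unadjusted limma p under 0.05, 5 members were higher and 15 lower of 39, where the background was 7.91% of genes, 1.95% higher and 5.97% lower. By the two-sided exact permutation test, 13 of 39 members had a p under 0.05, against 8.5% of all genes. The split of all genes with an unadjusted p under 0.05 depends on the scaling, with 24.6% of them higher as deposited, 33.6% after a shift of the livers to a common median and 37.5% with TMM factors. Under these scalings the members gave 5 higher and 12 lower, and 5 higher and 11 lower. In bulk liver, less RNA of a gene per cell and fewer cells that make it cannot be told apart.

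The log2 fold change was below 0 for 30 of 39 tested members (76.9%) and for 61.4% of all tested genes. Its median was -0.48 over the 39 tested members and -0.09 over all 12486 genes. For the 33 members with a mean of at least 10 reads in either group it was -0.33, and for the 8688 genes that met the same minimum -0.08. Means were lower in LNA29-treated livers for 24 of these 33 members. All 6 LNA29 livers lay below the saline median for 14 of the 39 members (35.9%), against 8.75% of all genes, and all 6 lay above it for 3 members (7.69%), against 3.42% of genes.

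**Figure D1:**
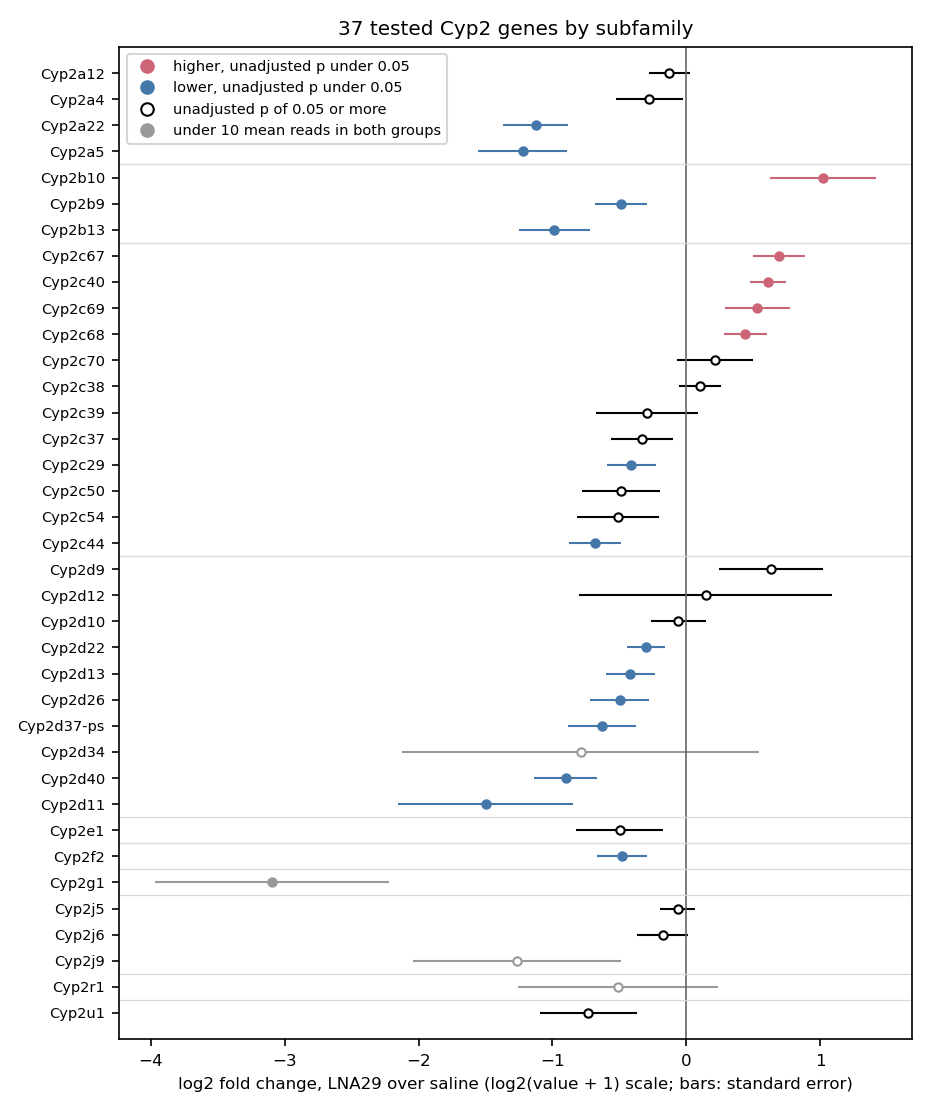
The log2 fold change (LNA29 over saline, log2(value + 1) scale) with its standard error is plotted for 37 tested Cyp2 genes, grouped by subfamily; Cyp2c55 and Cyp2s1, with at most 3 reads in every liver, are left out. Filled red and blue points have an unadjusted limma p under 0.05, open points do not, and grey marks genes with under 10 mean reads in both groups. Cyp2b10, Cyp2c67, Cyp2c40, Cyp2c69 and Cyp2c68 are the filled points to the right of 0.

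Cyp2e1, which oxidises ethanol, acetone and paracetamol in hepatocytes near the central vein, had the highest level per transcript length of the 50 members with an annotated length. Its mean per kb was 397425 in saline and 285249 in LNA29-treated livers, and the next in saline livers were Cyp2d26 at 50753 per kb, Cyp2d10 at 39003 and Cyp2c29 at 23843. The SD of Cyp2d26 and that of Cyp2d10 covered the difference between them, and the same held for Cyp2c29, Cyp2c50 (19152 per kb) and Cyp2c37 (19046 per kb). The value of Cyp2e1 ranged from 509020 to 1073359 with a median of 671806 in saline livers, and from 317962 to 764825 with a median of 487850 in LNA29-treated livers. The groups overlapped, although 3 LNA29 livers lay below every saline liver. The log2 fold change was -0.50 (SE 0.33, limma adjusted p = 0.773) and the exact permutation p was 0.0628. It was 0.0238 without LNA29 replicate 44, 0.0411 without saline replicate 49 and 0.123 without LNA29 replicate 48. Cyp2e1 made up 59.4% ± 5.09 of the summed value of the family in saline and 54.8% ± 6.33 in LNA29-treated livers (SD, n = 6 each).

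The highest values of Cyp2e1 belonged to saline replicate 43 and the lowest to LNA29 replicate 48. Saline replicate 43 was also the highest saline liver for Cyp2a22, Cyp2a5, Cyp2b9, Cyp2b13, Cyp2c29 and Cyp2f2. Without it, 4 members were higher and 9 lower at an unadjusted limma p under 0.05, and without saline replicate 49, 3 were higher and 13 lower. LNA29 replicate 48 had a summed value of 8 pericentral hepatocyte markers of 30415, and the other 11 livers lay between 57696 and 90480. None of these markers was listed at 1 in all livers. The sums of the groups overlapped, with medians of 79285 in saline and 76830 in LNA29-treated livers. The part of this marker list in the values of single members was not tested.

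The 5 members with higher means and an unadjusted p under 0.05 were Cyp2c40, Cyp2c67, Cyp2c68, Cyp2c69 and Cyp2b10. Cyp2c40 metabolises arachidonic acid and is predominant in females. Its values ran from 11591 to 16478 in saline livers, with a median of 15057, and from 18433 to 25550 in LNA29-treated livers, with a median of 23150. It was the only member whose groups did not overlap (1 of 39, 2.56%), which held for 0.985% of genes, 0.272% higher and 0.713% lower. The mean was 14862 ± 1742 in saline and 22650 ± 2606 in LNA29-treated livers (SD, n = 6 each), which gave a log2 fold change of 0.61 (SE 0.13, limma adjusted p = 0.0981). The exact permutation p was 0.00216, the smallest that 6 against 6 can give, and with any 1 liver left out it lay between 0.00216 and 0.00433.

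Cyp2c67 had values from 3959 to 8691 (median 5908) in saline and from 7420 to 13573 (median 8820) in LNA29-treated livers. All 6 LNA29 livers exceeded the saline median, and the groups overlapped at saline replicate 45. For Cyp2c67 the log2 fold change was 0.69 (SE 0.20, limma adjusted p = 0.237, exact permutation p = 0.013). Cyp2c68 likewise had all 6 LNA29 livers above the saline median, with values from 15082 to 27532 (median 18324) in saline and from 22881 to 32584 (median 26301) in LNA29-treated livers. Its log2 fold change was 0.44 (SE 0.16, limma adjusted p = 0.431, exact permutation p = 0.0216). Cyp2c69 was less even, with 3 of the LNA29 livers above every saline liver and 3 within the saline range. Its values ran from 7965 to 15873 (median 11733) in saline and from 10845 to 24812 (median 17475) in LNA29-treated livers, and the log2 fold change was 0.53 (SE 0.24, limma adjusted p = 0.61, exact permutation p = 0.0974).

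**Figure D2:**
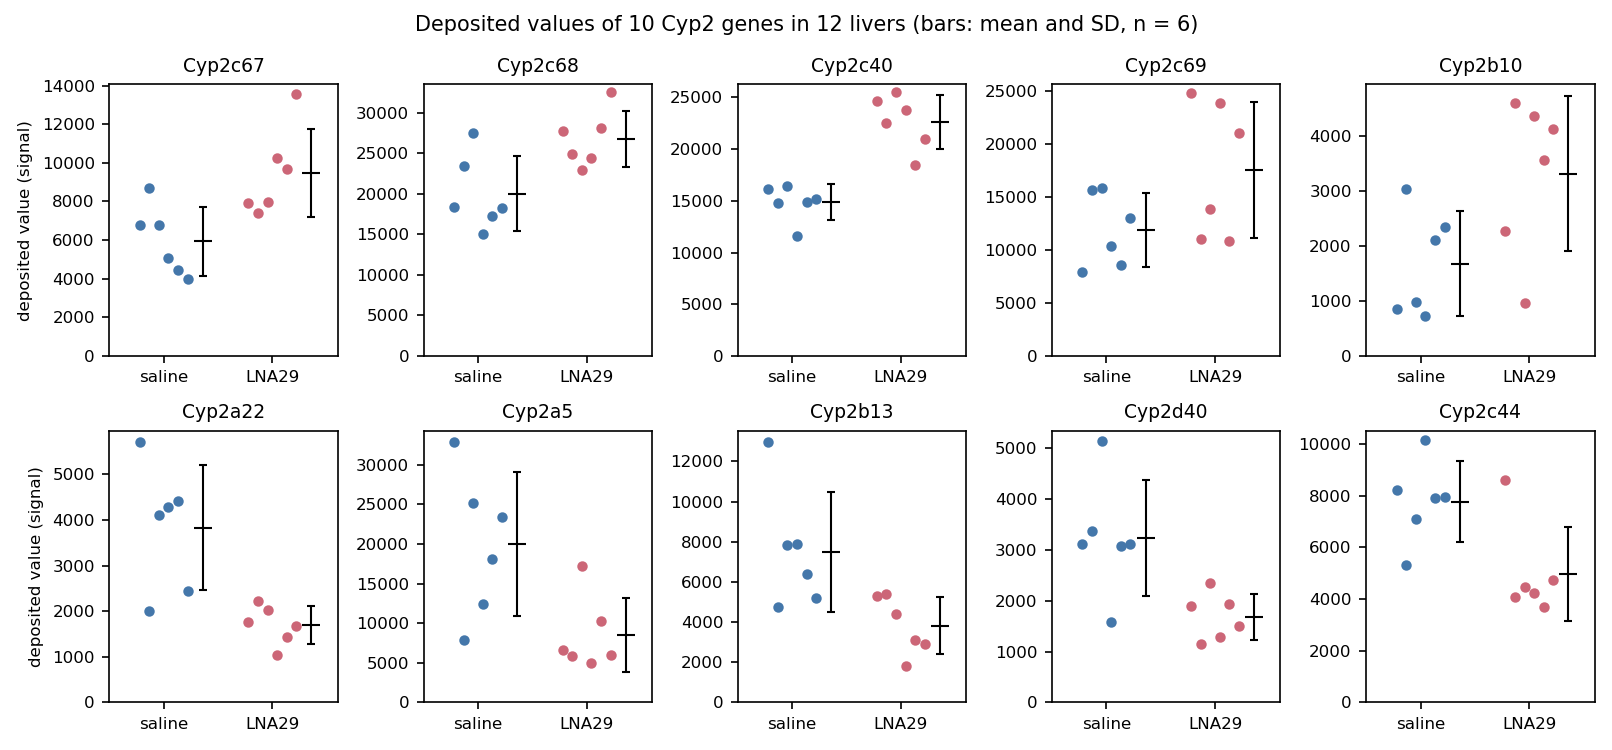
The deposited value (vertical axis, linear from 0) of 10 Cyp2 genes is plotted as a point for each saline (blue) and LNA29 (red) liver, with mean and SD (n = 6) beside the points. The upper row holds the 5 genes with higher means in LNA29 livers and an unadjusted limma p under 0.05. Of these, Cyp2c40 has no overlap between groups. The lower row holds 5 genes with lower means, whose groups all overlap.

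These 4 Cyp2c genes are neighbours. On chromosome 19 (GENCODE M21, GRCm38) the order is Cyp2c55, Cyp2c65, Cyp2c66, Cyp2c53-ps, Cyp2c29, Cyp2c38, Cyp2c39, Cyp2c67, Cyp2c68, Cyp2c40, Cyp2c69, Cyp2c37, Cyp2c54, Cyp2c50 and Cyp2c70, with 0 other protein-coding genes between any pair of neighbours. The flanking genes did not have higher means with an unadjusted p under 0.05. Cyp2c39, a retinoic acid hydroxylase, had a log2 fold change of -0.30 (SE 0.38), and Cyp2c37 had -0.33 (SE 0.23). Cyp2c70, which makes the muricholic acids of mouse bile, lies last in the row and had 0.21 (SE 0.28).

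**Figure D3:**
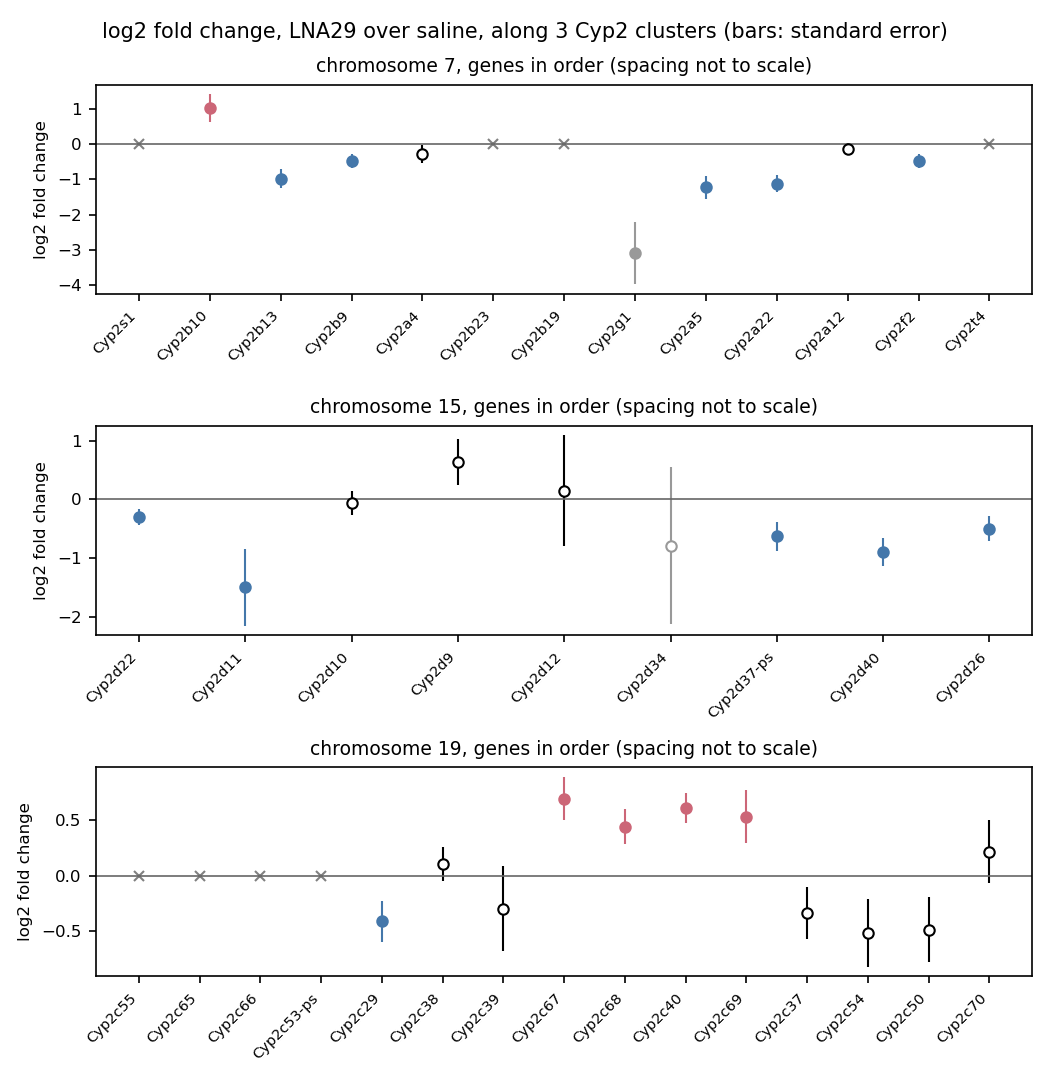
The log2 fold change (LNA29 over saline) with its standard error is drawn for Cyp2 genes in their order along the clusters on chromosomes 7, 15 and 19, with colours as in the plot of log2 fold changes and crosses at 0 for genes not tested or with at most 3 reads in every liver. On chromosome 19 the red points of Cyp2c67, Cyp2c68, Cyp2c40 and Cyp2c69 are adjacent, and on chromosome 7 Cyp2b10 stands beside Cyp2b13 and Cyp2b9, whose points lie below 0.

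The same 4 genes also share sequence. Of the 100-base windows of Cyp2c40, 44.1% occur unchanged in another member, and 26.8% of all its windows occur in Cyp2c69. The share was 36.3% for Cyp2c69, 23.7% for Cyp2c67 and 19.8% for Cyp2c68, the highest of all members, and no window of Cyp2c67, Cyp2c68, Cyp2c40 or Cyp2c69 was found in Cyp2c37, Cyp2c50 or Cyp2c54. RSEM splits reads of such windows between the genes by estimate, so the single values are uncertain, whereas their sum is not affected by how the 4 were split. The summed value of the 4 was 52729 ± 9787 in saline and 76468 ± 9827 in LNA29-treated livers (SD, n = 6 each), a log2 ratio of means of 0.54. Saline livers ranged from 42120 to 66649 and LNA29 livers from 65976 to 88219, so that 5 of 6 LNA29 livers lay above every saline liver. The 4 genes made up 28.2% ± 7.13 of the summed value of Cyp2c in saline and 42.2% ± 6.21 in LNA29-treated livers, and these shares overlapped by a narrow margin, with a highest saline share of 36.7% and a lowest LNA29 share of 36.6%. The other 12 Cyp2c genes went from 140626 ± 46788 to 107479 ± 27264, a log2 ratio of means of -0.39.

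**Figure D4:**
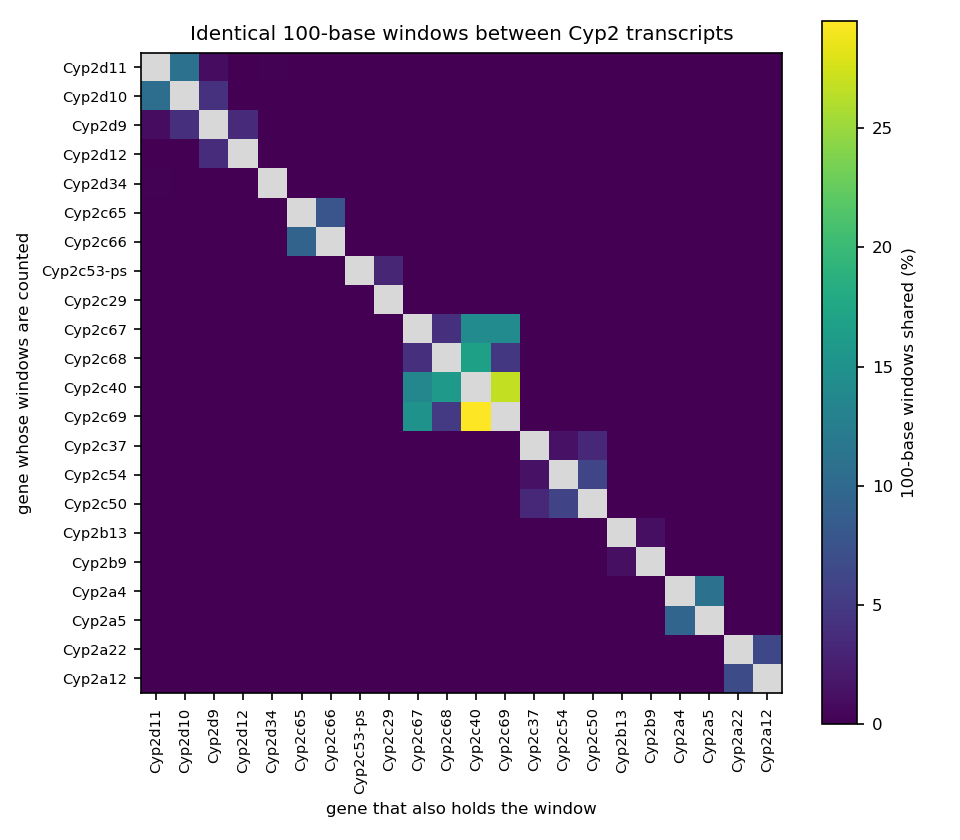
The share of 100-base windows of a gene (rows) that occur unchanged in another gene (columns) is shown in percent for 22 Cyp2 genes, ordered by chromosome. The brightest block joins Cyp2c67, Cyp2c68, Cyp2c40 and Cyp2c69, up to 29.5% of the windows of Cyp2c69 in Cyp2c40, and smaller blocks join Cyp2d10 with Cyp2d11 and Cyp2a4 with Cyp2a5.

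The remaining Cyp2c genes that were named by the rule had lower means. Cyp2c29, an epoxygenase that CAR ligands induce, had the highest mean of the subfamily, with values from 32930 to 69647 (median 37685) in saline and from 26340 to 36226 (median 30340) in LNA29-treated livers. All 6 LNA29 livers lay below the saline median, and the top of the saline range was the single value of replicate 43. Its log2 fold change was -0.41 (SE 0.19, limma adjusted p = 0.606, exact permutation p = 0.0368), and -0.26 with an exact permutation p of 0.0671 without saline replicate 43. Cyp2c44, an arachidonic acid epoxygenase annotated as Cyp2c23 in GENCODE and separated from the cluster by 52 protein-coding genes, had values from 5333 to 10150 (median 7920) in saline and from 3679 to 8612 (median 4361) in LNA29-treated livers. LNA29 replicate 44 held the value of 8612 and the other 5 LNA29 livers lay below every saline liver. In Cyp2c44 the log2 fold change was -0.68 (SE 0.19, limma adjusted p = 0.237), and without LNA29 replicate 44 it was -0.85 with an adjusted p of 0.0434. No other liver, left out alone, brought its adjusted p under 0.05, and without saline replicate 49 the log2 difference was -0.60.

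Cyp2c55 is among the 15 lower members by the unadjusted p, but it had 0 to 3 reads in saline and 0 reads in LNA29-treated livers, so no fold is given. Cyp2c37, Cyp2c50 and Cyp2c54, which share up to 6.16% of windows with each other, had log2 fold changes of -0.33, -0.49 and -0.51 with limma adjusted p between 0.737 and 0.793. For Cyp2c50 and Cyp2c54 3 of the 6 LNA29 livers lay below the saline median and 3 above it. The median log2 fold change of Cyp2c was -0.30 over 13 tested genes and -0.10 over the 12 with at least 10 mean reads, and over the 13 it was 0.061 without LNA29 replicate 48. The summed value of the 16 genes was 193355 ± 45227 in saline and 183948 ± 32438 in LNA29-treated livers, a log2 ratio of -0.07 that came to 0.070 without saline replicate 43.

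In the Cyp2b subfamily a pair of genes had lower means and 1 a higher mean. Cyp2b10, the classical target of CAR and a marker of its activation, had values from 730 to 3032 (median 1547) in saline and from 964 to 4585 (median 3845) in LNA29-treated livers. The lowest LNA29 value was that of replicate 48, the liver with few pericentral marker reads, and the other 5 exceeded the saline median. The mean of Cyp2b10 was 1675 ± 949 in saline and 3312 ± 1416 in LNA29-treated livers (SD, n = 6 each), with a log2 fold change of 1.02 (SE 0.40, limma adjusted p = 0.487, exact permutation p = 0.0671). With 1 liver left out the log2 difference lay between 0.82 (without saline replicate 49) and 1.34 (without LNA29 replicate 48). The exact permutation p was 0.0152 without LNA29 replicate 48 and between 0.0519 and 0.139 without any other liver. No 100-base window of Cyp2b10 occurs in another gene.

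Cyp2b13 and Cyp2b9, both predominant in females, lie next to Cyp2b10 on chromosome 7. Cyp2b13 ran from 4741 to 12959 (median 7107) in saline and from 1837 to 5398 (median 3737) in LNA29-treated livers. All 6 LNA29 livers were below the saline median, and the log2 fold change was -0.99 (SE 0.27, limma adjusted p = 0.21, exact permutation p = 0.013). Cyp2b9 ran from 6910 to 12228 (median 9048) in saline and from 4377 to 9009 (median 6290) in LNA29-treated livers. Here too all 6 LNA29 livers were below the saline median, with a log2 fold change of -0.49 (SE 0.19, limma adjusted p = 0.498, exact permutation p = 0.0498). The sum of Cyp2b9 and Cyp2b13 was 16664 ± 4962 in saline and 10395 ± 3159 in LNA29-treated livers, and 4 of 6 LNA29 livers lay below every saline liver. Cyp2b10 was 10.2% ± 7.10 of the summed Cyp2b value in saline and 25.0% ± 12.2 in LNA29-treated livers, with overlapping groups.

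All 4 Cyp2a genes had negative log2 fold changes, with a median of -0.70, as did 61.4% of all tested genes, whose median was -0.09. Cyp2a5, the coumarin and nicotine hydroxylase, had values from 7894 to 32831 (median 20757) in saline and from 5034 to 17271 (median 6334) in LNA29-treated livers. LNA29 replicate 48 held the highest of the LNA29 values, all 6 of which were below the saline median. In Cyp2a5 the log2 fold change was -1.22 (SE 0.33, limma adjusted p = 0.21, exact permutation p = 0.0195), and without LNA29 replicate 48 it was -1.46 with an adjusted p of 0.0468. The adjusted p of Cyp2a5 stayed at 0.05 or more with any other liver left out, and without saline replicate 43 the log2 difference was -1.05. Cyp2a22 had values from 2002 to 5716 (median 4194) in saline and from 1041 to 2219 (median 1728) in LNA29-treated livers. Overlap came from saline replicate 45, at 2002, which was exceeded by LNA29 replicates 46 and 48. In Cyp2a22 the log2 fold change was -1.12 (SE 0.24, limma adjusted p = 0.0834, exact permutation p = 0.00649), and with saline replicate 45 left out these came to -1.29 and an adjusted p of 0.0438. Leaving out any other liver kept its adjusted p at 0.05 or more, and without saline replicate 43 the log2 difference was -0.99.

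The close copies of these genes had smaller log2 fold changes, and the differences between copies were not tested. Cyp2a4, a steroid hydroxylase predominant in females, shares 11.2% of its windows with Cyp2a5 and had a log2 fold change of -0.28 (SE 0.25, limma adjusted p = 0.857). Cyp2a12, which shares 6.83% of its windows with Cyp2a22, had the highest mean of the subfamily, with values from 20252 to 30544 (median 28836) in saline and from 18924 to 27676 (median 24659) in LNA29-treated livers. The sum of Cyp2a4 and Cyp2a5 was 32074 ± 11234 in saline and 18952 ± 7894 in LNA29-treated livers, and 3 of 6 LNA29 livers lay below every saline liver. For Cyp2a12 and Cyp2a22 together the means were 30426 ± 5296 and 25867 ± 3223. The share of Cyp2a5 in the Cyp2a sum was 30.5% ± 7.30 in saline and 18.3% ± 5.90 in LNA29-treated livers (SD, n = 6 each).

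Of the 10 Cyp2d genes, all of which had reads, 6 were lower at an unadjusted limma p under 0.05 and 0 higher. Among all tested genes 5.97% were lower and 1.95% higher. Cyp2d26 had the highest mean, with values from 44850 to 118994 (median 87290) in saline and from 48286 to 72128 (median 58454) in LNA29-treated livers. The whole LNA29 range lay inside the saline range, in which replicate 49 was lowest, and the log2 fold change was -0.50 (SE 0.22, limma adjusted p = 0.582, exact permutation p = 0.0563). Cyp2d40 had values from 1571 to 5132 (median 3108) in saline and from 1146 to 2340 (median 1694) in LNA29-treated livers. Only saline replicate 49 lay within the LNA29 range. In Cyp2d40 the log2 fold change was -0.90 (SE 0.24, limma adjusted p = 0.186, exact permutation p = 0.00866), and leaving out saline replicate 49 gave -1.09 with an adjusted p of 0.0384. No other liver, left out alone, brought its adjusted p under 0.05, and without saline replicate 47 the log2 difference was -0.75.

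Cyp2d22 ran from 8130 to 13461 (median 11869) in saline and from 8339 to 10170 (median 9109) in LNA29-treated livers, with a log2 fold change of -0.30 (SE 0.14, limma adjusted p = 0.62, exact permutation p = 0.0433). Cyp2d13 ran from 2757 to 5034 (median 2901) in saline and from 1849 to 2882 (median 2787) in LNA29-treated livers, with a log2 fold change of -0.42 (SE 0.18, limma adjusted p = 0.583, exact permutation p = 0.0628). The upper part of the saline range of Cyp2d13 was replicates 43 and 49 alone. The pseudogene Cyp2d37-ps ran from 750 to 1313 (median 1144) in saline and from 415 to 1062 (median 739) in LNA29-treated livers, with a log2 fold change of -0.63 (SE 0.25, limma adjusted p = 0.502, exact permutation p = 0.0584). For Cyp2d22, Cyp2d13 and Cyp2d37-ps all 6 LNA29 livers lay below the saline median, yet each pair of groups overlapped.

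Cyp2d9, the testosterone hydroxylase that is predominant in males, had values from 3280 to 8054 (median 4858) in these female saline livers and from 1867 to 18234 (median 9674) in LNA29-treated livers. LNA29 replicate 48 was again the low value, and the other 5 exceeded the saline median. Its log2 fold change was 0.63 (SE 0.39, limma adjusted p = 0.747, exact permutation p = 0.236). Without LNA29 replicate 48 the log2 difference was 1.05 with an exact permutation p of 0.00866, and without LNA29 replicate 54 it was 0.39 with an exact permutation p of 0.442. Cyp2d11 ran from 586 to 3546 (median 1831) in saline and from 44.2 to 1477 (median 910) in LNA29-treated livers. The lowest value, in LNA29 replicate 54, stood for 3 reads in the liver that had the highest Cyp2d9. Its log2 fold change was -1.50 (SE 0.65, limma adjusted p = 0.575, exact permutation p = 0.0606), but without LNA29 replicate 54 the log2 difference was -0.75 (exact permutation p = 0.117). With any 1 liver left out the exact permutation p lay between 0.0108 and 0.147.

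Reads of Cyp2d9, Cyp2d10, Cyp2d11 and Cyp2d12 can be exchanged, since Cyp2d11 shares 11.1% of its windows with Cyp2d10, and Cyp2d9 shares 4.03% with Cyp2d10 and 3.66% with Cyp2d12. The summed value of the 4 was 71556 ± 22374 in saline and 69222 ± 4076 in LNA29-treated livers. Cyp2d10 gave most of it, and its log2 fold change was -0.06 (SE 0.21, limma adjusted p = 0.974). The spread of Cyp2d10 was wide in saline livers, from 36312 to 99698, and narrow in LNA29-treated livers, from 56520 to 61701. Over the whole Cyp2d subfamily the sum was 177210 ± 50757 in saline and 142232 ± 7039 in LNA29-treated livers.

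Cyp2f2, which oxidises naphthalene and is known from airway cells, had values from 21556 to 37578 (median 30222) in saline and from 13623 to 30634 (median 21217) in LNA29-treated livers. Of the LNA29 livers 3 lay below every saline liver, replicate 48 lowest, and the log2 fold change was -0.48 (SE 0.19, limma adjusted p = 0.488, exact permutation p = 0.0368). Cyp2j5, an arachidonic acid epoxygenase, had values from 5825 to 8703 (median 6507) in saline and from 5696 to 7650 (median 6293) in LNA29-treated livers. These ranges nearly coincided, and its log2 fold change was -0.06 (SE 0.13, limma adjusted p = 0.95). Cyp2u1, a fatty acid hydroxylase, had values from 125 to 206 (median 156) in saline and from 54.8 to 208 (median 74.1) in LNA29-treated livers, which stood for 3 to 17 reads. Of its LNA29 livers 4 lay below every saline liver and 2 above the saline median, with a log2 fold change of -0.73 (SE 0.36, limma adjusted p = 0.653).

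Cyp2j6, with 33 to 120 reads in a liver, had a log2 fold change of -0.18 (SE 0.19, limma adjusted p = 0.879). Fewer reads stood behind Cyp2g1 and Cyp2r1. Cyp2g1, an olfactory P450, had 5 to 18 reads in saline and 0 to 9 in LNA29-treated livers, 4 of which had at most 1. Its limma unadjusted p was 0.00244 (adjusted p = 0.237), and its fitted fold change rests on the 1 written for livers without reads. Cyp2r1, the vitamin D hydroxylase of liver, had 1 to 4 reads in saline and 0 to 3 in LNA29-treated livers, so a change of Cyp2r1 was not detectable at this depth.

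**Figure D5:**
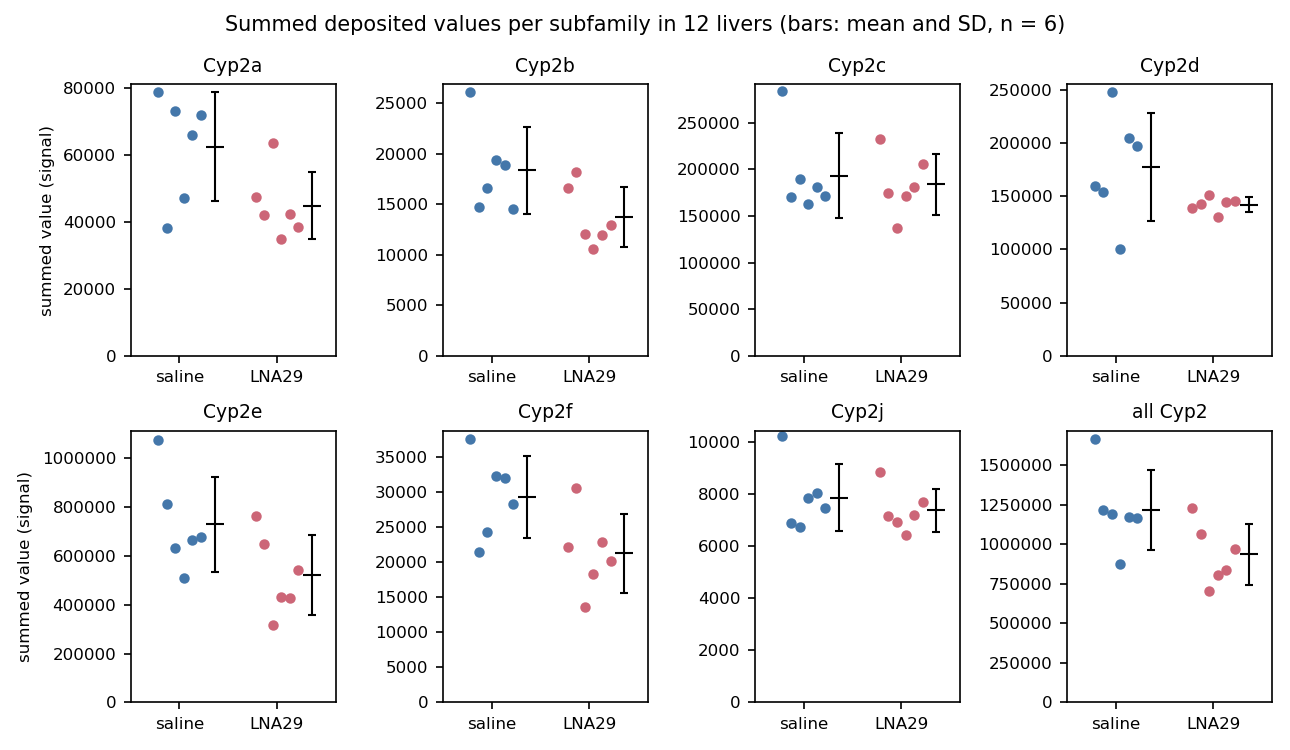
The summed deposited values of 7 subfamilies and of all 52 Cyp2 genes (vertical axes, linear from 0) are shown for each saline (blue) and LNA29 (red) liver, with mean and SD (n = 6). Groups overlap in every panel, Cyp2e carries most of the total, and the LNA29 livers of Cyp2d lie close together between 130482 and 151436.

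The sum of all 52 members was 1217470 ± 254469 in saline and 936465 ± 192987 in LNA29-treated livers (SD, n = 6 each), a log2 ratio of means of -0.38, and 3 of 6 LNA29 livers lay below every saline liver. Without Cyp2e1 the sums were 488989 ± 86936 and 413604 ± 33463, a log2 ratio of -0.24, and the LNA29 range lay within the saline range. The log2 ratios of the subfamily sums were -0.48 for Cyp2a, -0.42 for Cyp2b, -0.07 for Cyp2c, -0.32 for Cyp2d, -0.48 for Cyp2e, -0.46 for Cyp2f and -0.09 for Cyp2j. These sums follow their most abundant genes, and for Cyp2b the sum hides the opposite signs of Cyp2b10 and its neighbours. No test was made of the sums.

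Members grouped by their known control differed in sign. Of 7 members that CAR ligands induce, Cyp2b10 was higher, and Cyp2a5, Cyp2c29 and Cyp2c55 were lower, at an unadjusted limma p under 0.05. Cyp2c55 had 0 to 3 reads in saline and 0 in LNA29-treated livers, so its p rests on the 1 written for livers without reads. The shares among all tested genes were 1.95% higher and 5.97% lower. The summed value of the 7 ranged from 106053 to 248774 in saline and from 73292 to 137563 in LNA29-treated livers. The highest saline sum was that of replicate 43 alone, and the next was 139087. Among 5 members predominant in females, Cyp2c40 and Cyp2c69 were higher and Cyp2b9 and Cyp2b13 lower by the same measure, and Cyp2a4 did not pass it.

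Other genes of the pathway were taken from lists of electron donors, haem enzymes, regulators and further CAR and PXR targets. Over all tested genes, 5.97% were lower and 1.95% higher at an unadjusted limma p under 0.05. Of the 5 listed electron donors, the cytochrome b5 gene Cyb5a was not found by its symbol, so its level is not known here. Of the 4 electron donors found, 2 were lower and 0 higher at an unadjusted limma p under 0.05. Cyb5b, a cytochrome b5 of the outer mitochondrial membrane, had 4820 ± 985 in saline and 2943 ± 206 in LNA29-treated livers with no overlap (SD, n = 6 each), which gave a log2 fold change of -0.69 (SE 0.14, limma adjusted p = 0.0681). Por, the reductase that serves all microsomal P450 enzymes, had a log2 fold change of 0.27 (SE 0.17, limma adjusted p = 0.747). Of 9 genes of haem synthesis and breakdown, 1 was lower (Alad) and 0 higher. The rate-limiting Alas1 had a log2 fold change of -0.22 (SE 0.20, limma adjusted p = 0.864).

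Against 5.97% lower and 1.95% higher among all tested genes, 4 of 23 regulators were lower (Nr1i3, Cebpa, Dbp and Tef) and 0 higher at an unadjusted limma p under 0.05. One passed at the adjusted threshold, the circadian factor Dbp (limma adjusted p = 0.0468, lower in 6 of 6 LNA29 livers than in any saline liver). It had 3 to 23 reads in saline and 1 to 2 in LNA29-treated livers, below the floor, so no fold is given. CAR itself (Nr1i3) had 7239 ± 931 in saline and 5362 ± 1204 in LNA29-treated livers, a log2 fold change of -0.45 (SE 0.15, limma adjusted p = 0.347), and PXR (Nr1i2) had 0.09 (SE 0.19). The aryl hydrocarbon receptor (Ahr) had a log2 fold change of -0.05 (SE 0.45, limma adjusted p = 0.988). It had 9 to 80 reads in saline and 4 to 39 in LNA29-treated livers. Of 13 other targets of CAR and PXR, Cyp3a11 and Gadd45b were higher and Gstm3 and Abcb1a lower by the unadjusted p. Cyp3a11, the main hepatic enzyme of the next P450 family, had a log2 fold change of 1.15 (SE 0.29, limma adjusted p = 0.172).

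Markers of other cells were present at low levels beside those of hepatocytes. The 7 general hepatocyte markers summed to between 32862853, in saline replicate 49, and 111417220, and 0 of them had an unadjusted limma p under 0.05. Of 8 periportal markers 0 passed, and their sums overlapped, from 509531 to 715397 in saline and from 552396 to 908195 in LNA29-treated livers. Of 8 stellate cell markers 2 were higher by the unadjusted p (the collagen genes Col3a1, limma adjusted p = 0.0438, and Col1a2), with sums from 1984 to 3140 in saline and from 1732 to 3755 in LNA29-treated livers. The numbers were 1 higher of 7 macrophage markers (Marco), 1 lower of 6 endothelial markers (Stab1), 0 of 6 cholangiocyte markers and 0 of 5 blood markers. By the same p, 1.95% of all tested genes were higher and 5.97% lower. The part of these markers in the Cyp2 values was not tested.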

How the data were processed

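Messenger RNA from 6 saline and 6 LNA29 livers had been sequenced as single reads. The authors aligned them by MapSplice2, took gene estimates from RSEM (mm9 per the submitters' notes, versions not given in the sources used here), and deposited a signal value per gene and liver. Upper quartiles were 1000 per library (998 in saline replicate 49), and genes without reads stood at 1. Since 92.0% to 93.6% of values above 1 were whole multiples of a step (within 0.02 reads), the step was taken as 1 read. Reads gave the depth (7696095 to 19062479), the floor of 3 reads and the minimum of 10 mean reads, and entered no test. Values under 100 rest on about 10 reads or fewer. The 4 columns of the authors' own means, fold change and p-value, and 3 unnamed columns, were not used.

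Log2(value + 1) was fitted by limma 3.58.1 (R 4.3.3, with trend). Genes entered if their mean reached 10 (12486 genes), and p-values were adjusted by Benjamini-Hochberg at 0.05. On this scale fold changes of low genes depend on the 1 given to livers without reads, against 9.80 to 24.4 for 1 read. The fit was tested on simulated data, in which only genes of higher level were changed and the spread between livers had the same setting throughout. It does not show how the fit performs for genes with few reads or a wider spread. Single members were also compared by exact permutation, two-sided, through the 924 possible divisions. The labels name the livers as separate samples without further detail, so p-values measure the spread between these samples. Sums were described without a test. Shared windows (100 bases) and 3′ UTR matches came from GENCODE M21 (GRCm38), where 50 of 52 members were found, and no coordinate was carried between builds.

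Members given with ranges were those whose groups did not overlap, those with an unadjusted limma p under 0.05 and a group mean of at least 10 reads, the highest of each subfamily, and Cyp2b10, Cyp2c40 and Cyp2d9, which the study names. Members, lists and this rule were chosen with earlier results of these data known, and the sums over genes that share windows were added after seeing the data. Alternatives were pseudocounts of 0.1 and 10, other filters, a common median, TMM factors, the thresholds of the study (ratio of means of at least 1.5 with a one-tailed p of at most 0.05, in place of limma) and leaving out each liver.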

Additional observations from a re-analysis of the deposited data

Results flagged for a closer look

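In 58 groups of 6 livers, the log2 value of the highest or lowest liver was set against the range of its group, for the members described with ranges and for sums of subfamilies. In 5 groups the gap to the nearest liver exceeded Dixon's limit as a share of the range, where chance gives about 1 in 20 groups, or 2.9 of these. Cyp2d11 in LNA29 replicate 54 was at 5.5, below the other 5 LNA29 livers at 9.29 to 10.5. Cyp2c44 in LNA29 replicate 44 was at 13.07, above the others at 11.8 to 12.2. Cyp2c40 in saline replicate 49 was at 13.5, below the others at 13.86 to 14.01, and without this liver the log2 difference of Cyp2c40 was 0.54 with an exact permutation p of 0.00433. Cyp2a12 in LNA29 replicate 50 was at 14.21, below the others at 14.6 to 14.8. The sum of Cyp2c in saline replicate 43 was at 18.11, above the others at 17.3 to 17.5.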

How the results depend on the processing

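No paired analysis was possible because the groups share no replicate numbers. The count models planned on recovered reads were not run, since the deposited values are not counts. The count of members at an unadjusted limma p under 0.05 was 5 higher and 15 lower, between 3 (without saline replicate 49) and 7 and between 9 (without saline replicate 43) and 14 with 1 liver left out, and 3 and 12 without a filter on low values. By the thresholds of the study, with another test and a minimum ratio of 1.5, 4 members were higher and 8 lower of 40 (30%), against 5.84% of 15122 genes (271 higher and 612 lower). At the adjusted threshold the count was 0 under every other setting run, and 0 to 1 with 1 liver left out. The 1 was Cyp2a22 without saline replicate 45, Cyp2d40 without saline replicate 49, Cyp2c44 without LNA29 replicate 44 and Cyp2a5 without LNA29 replicate 48. The median log2 fold change of Cyp2c, -0.30, was 0 without a filter, as were those of Cyp2b (-0.49) and Cyp2j (-0.18), since genes without reads enter, and between -0.42 and 0.061 with 1 liver left out, the latter without LNA29 replicate 48. The log2 ratio of Cyp2c sums, -0.07, lay between -0.15 and 0.070 with 1 liver left out, the latter without saline replicate 43. That of Cyp2j, -0.09, was -0.31 as a share of all deposited values. The ratios of the other subfamily sums were also lower by this measure, from -0.25 for Cyp2c to -0.72 for Cyp2f. All deposited values summed to 82180800 in saline replicate 49 and to between 157344000 and 216449000 in the other livers. The part of this liver in the lower ratios was not tested. The log2 fold change of Cyp2j5 lay between -0.11 and 0.014, the latter without saline replicate 43. Of the alternative values of counts, medians and sums, 262 kept the count within 1.5 times, or moved a median or sum by less than 1 SD of the saline livers on the log2 scale. Genes under about 10 reads in a liver, such as Cyp2r1 and Cyp2u1, are limited by depth.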
